A study of Mus musculus with 6 samples.

Results

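The cytosolic ribosomal protein genes were followed in mouse Ba/F3 cells with and without the TPR-FGFR1 fusion. Members were taken by gene symbol: an Rps or Rpl symbol with a number and at most the letters a, x, y or l, the stalk genes Rplp0, Rplp1 and Rplp2, and Rpsa, kept where the gene is protein coding. The rule matched 84 symbols, of which 3 were annotated as pseudogenes, and left 81 members among the 57010 gene IDs of the table. They comprised 31 small subunit genes, 47 large subunit genes and the 3 genes of the P stalk. Of these, 78 passed the filter of a mean of at least 1 TPM and were tested. Rpl10l and Rpl39l were listed at 0 in all 6 libraries, and Rpl3l lay between 0.08 and 0.21 TPM.

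Ba/F3 is an interleukin-3 dependent haematopoietic line in which oncogenic kinases are commonly studied, and both groups are the same line. The 3 control libraries came from cells with an empty vector, labelled wild type, and the other 3 from cells made to overexpress TPR-FGFR1, a fusion of a nuclear pore protein with a receptor tyrosine kinase. Fusion cells were made with a lentivirus and kept for 6 days in puromycin at 5 µg/ml, as a stably expressing population. The labels do not state how the empty vector cells were selected, the supply of interleukin-3, the species of the fusion sequence or whether replicates were separate cultures, so a p-value here weighs a difference against library-to-library scatter that may be technical only.

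Ribosomal proteins coat and stabilise the ribosomal RNA of the small and large subunits, and nearly all of them are needed in equal number for each ribosome. Their messenger RNAs are among the most abundant of growing cells and typically begin with a pyrimidine tract, the TOP motif, through which mTOR signalling and the RNA-binding protein Larp1 control their translation. Several ribosomal proteins also act outside the ribosome, and loss of 1 copy of certain genes causes Diamond-Blackfan anaemia, a failure of red cell production.

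The start of transcription is shown because a pyrimidine tract there is the feature that these genes are known to share and that the rule for members did not use. The windows hold 15 bases on each side of the annotated start, from RefSeq promoters on build GRCm38.p6, and capitals mark the longest run of C and T in each window. Position 1 is the annotated first base of the transcript, which follows the first 15 printed bases. Rpl13a, Rpl12 and Rps2 are shown as members that fell and have an entry in the promoter table. Only genes with a single entry are shown, which left out the 1 called member that rose and has an entry. Rplp0 is shown as a stalk gene without a tract at its start. The other members shown have a C at the annotated start followed by at least 4 pyrimidines, and their marked run opens upstream of it.
Rpl13a, chr7:45128731-45128760, minus strand: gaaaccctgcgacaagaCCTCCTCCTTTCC
Rpl12, chr2:32961697-32961726, plus strand: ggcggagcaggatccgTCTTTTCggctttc
Rps2, chr17:24720048-24720077, plus strand: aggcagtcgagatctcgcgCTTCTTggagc
Rplp0, chr5:115559452-115559481, plus strand: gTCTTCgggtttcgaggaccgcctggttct
Rplp2, chr7:141447636-141447665, plus strand: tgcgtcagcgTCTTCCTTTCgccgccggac
Rps27, chr3:90213634-90213663, minus strand: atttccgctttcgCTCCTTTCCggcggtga
Rps6, chr4:86857353-86857382, minus strand: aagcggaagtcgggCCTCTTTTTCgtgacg
Rpl35, chr2:39005117-39005146, minus strand: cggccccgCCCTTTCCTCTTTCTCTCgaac
Rpl28, chr7:4792950-4792979, plus strand: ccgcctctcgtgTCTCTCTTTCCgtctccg

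The marked run covered the annotated start in Rplp2, Rps27, Rps6, Rpl35 and Rpl28, with lengths of 10, 9, 10, 18 and 11 bases. In Rpl12, Rpl13a and Rps2 the run opened at positions 2, 3 and 5 of the transcript, and in Rplp0 it lay upstream of the start. Of the 81 members, 61 had an entry in the promoter table. A C at the start followed by at least 4 pyrimidines was found in 13 of the 61 (21.31%), against 3.064% of the 8746 tested genes with an entry. Allowing the C to lie up to 5 bases to either side gave 28 members (45.9%) and 24.37% of tested genes. The letters CGGAAG, the core of the site bound by Ets factors such as Gabpa, occurred on either strand of the 300-base promoter in 42 members (68.85%) and in 38.25% of tested genes. These are matches of letters around annotated starts, which are often some bases away from the start used in a cell.

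Among all genes the members formed a block of very high level. The mean level of the tested members had a median of 2449 TPM, with quartiles of 1227 and 3466 TPM, and 64 of the 78 exceeded 1000 TPM. Together they took 23.1%, 23.2% and 22.8% of TPM in empty vector replicates 1, 2 and 3, and 20.4%, 19.6% and 23.4% in TPR-FGFR1 replicates 1, 2 and 3. Replicates 1 and 2 of the fusion cells lay below every control, and replicate 3 lay above every control. The means of 23.0% ± 0.212 and 21.1% ± 2.00 (SD, n = 3 each) differed by −1.90 percentage points (two-sided exact permutation p = 0.4, with 0.1 the smallest value that this number of libraries can reach). Without TPR-FGFR1 replicate 3 the difference was −3.02 points, and without TPR-FGFR1 replicate 2 it was −1.12 points.

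**Figure D1:**
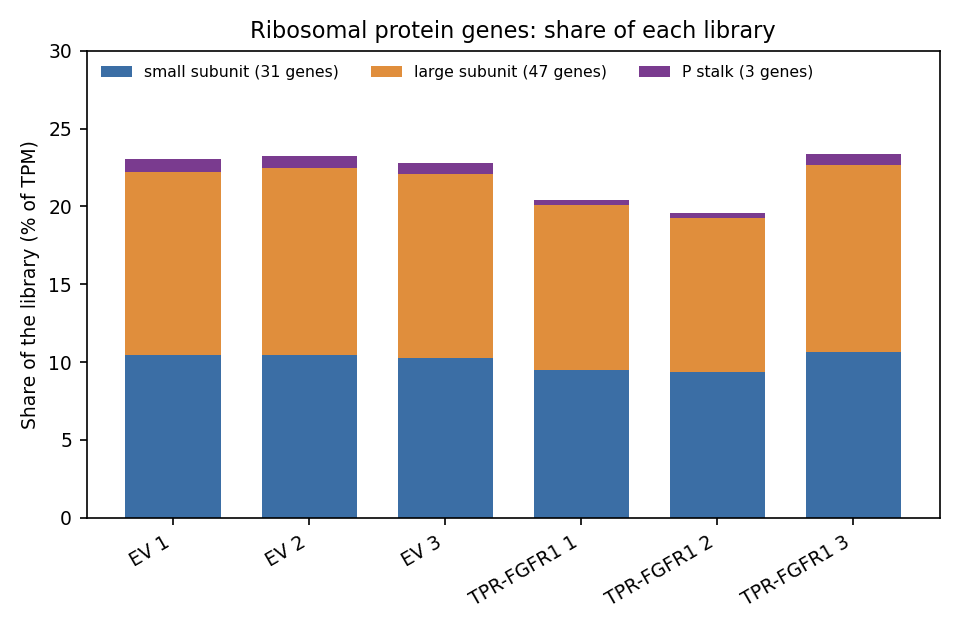
Stacked bars give the summed share of TPM, in percent, of small subunit, large subunit and P stalk genes in each empty vector (EV) and TPR-FGFR1 library. The total is 19.6% to 20.4% in TPR-FGFR1 replicates 1 and 2 and 22.8% to 23.4% in the other 4 libraries.

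In both subunits TPR-FGFR1 replicates 1 and 2 lay below and replicate 3 above every control. Small subunit genes held 10.4% ± 0.121 of TPM with the empty vector and 9.82% ± 0.694 with the fusion (SD, n = 3 each, two-sided exact permutation p = 0.4). Large subunit genes without the stalk held 11.9% ± 0.157 and 10.8% ± 1.09 (SD, n = 3 each, two-sided exact permutation p = 0.4). The ratio of summed large to small subunit level was 1.20, 1.22 and 1.22 in the empty vector libraries and 1.15, 1.09 and 1.20 in the TPR-FGFR1 libraries, so that the groups overlapped. In bulk RNA a smaller share of cells with a high level and less RNA per cell cannot be told apart, and TPM gives only shares of each library.

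A few facts of the whole series touch every result. The depth behind each value is unknown, because TPM carries no number of reads. Fgfr1 was listed at 0.02 to 0.05 TPM in the controls and at 0.58 to 1.26 TPM in the fusion libraries, while Tpr lay between 125 and 155 TPM in all 6. TPR-FGFR1 replicate 3 stood apart from its group: over all tested genes the interquartile range of deviations from the control mean was 0.391 on the log2 scale, against 0.590 and 0.664 in replicates 1 and 2, and calls of members are given with and without it. Mitochondrially encoded genes took 11.4% to 13.0% of TPM with the empty vector and 12.7% to 15.4% with the fusion (two-sided exact permutation p = 0.2), and scaling without them left 3 members called in each direction. The cells are labelled B lymphocytes, but Cd79a, Ms4a1, Pax5 and Ebf1 were at or below 0.14 TPM, so of 6 B-cell markers only Cd79b passed the filter, at 4.06 to 7.14 TPM. Of 5 haematopoietic markers Kit was listed at 0, while Ptprc, Csf2rb, Il3ra and Spn were present, with a summed list level of 451 to 483 TPM in the controls and 379 to 426 TPM in the fusion libraries. The sum hides opposite directions. Ptprc was higher in every fusion library than in any control, and Csf2rb, Il3ra and Spn were lower (22.6% and 20.8% of all tested genes). Il3ra and Spn were called lower (limma adjusted p = 0.0259 and 0.00938), against 10.0% of all tested genes. The 4 T-cell markers summed to at most 0.1 TPM and 5 stromal and epithelial markers to at most 0.68 TPM. The 5 myeloid markers, with Itgam and Lyz2 present, summed to 24.4 to 26.2 TPM and 17.6 to 23.1 TPM, and the 3 erythroid markers to 139 to 217 TPM and 103 to 273 TPM. The part of these differences in the ribosomal protein results was not tested.

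Of the 78 tested members, 3 rose and 3 fell with the fusion at a limma adjusted p under 0.05, all but 1 of them large subunit genes. Over all 12862 tested genes 10.2% rose and 10.0% fell, and 7.69% of the members were called in either direction. Rpl7, Rpl22 and Rpl21 rose, and Rpl13a, Rpl12 and Rps2 fell. At an unadjusted p under 0.05, 8 members were higher and 23 lower, against 19.9% and 19.3% of all tested genes. Another 17 had an adjusted p between 0.05 and 0.1, of which 15 were lower, where 6.93% of all tested genes were higher and 6.44% lower in that band. Fold changes are given on the log2(TPM + 1) scale. The median over members was −0.14, against 0.02 over all tested genes, and the SD over members was 0.40 against 0.46. The members' median was −0.03 after quantile normalization and turned to 0.01 when libraries were scaled to the median ribosomal protein gene, which moved the median of all genes by 0.13.

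Rpl7, an RNA-binding protein of the large subunit, stood at 2442, 2605 and 2625 TPM in empty vector replicates 1 to 3 and at 3711, 3719 and 3016 TPM in TPR-FGFR1 replicates 1 to 3. All fusion libraries lay above all controls, with replicate 3 the nearest to them. It rose by 0.44 (SE 0.114, limma adjusted p = 0.0388).

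Rpl22, which is dispensable for the ribosome in mice but needed for αβ T-cell development, stood at 2339, 2313 and 2280.3 TPM with the empty vector and at 3189, 3216 and 2862 TPM with the fusion. The groups did not overlap, and the 3 controls lay close together. It rose by 0.42 (SE 0.0900, limma adjusted p = 0.0247), the smallest adjusted p among the members. Its paralog Rpl22l1, which the symbol rule leaves out, was at 1008, 988 and 1042 TPM and then at 1160.4, 1152 and 907 TPM. The groups overlapped for Rpl22l1, with replicate 3 below and the other fusion libraries above the controls (log2 fold change 0.07, SE 0.115, limma adjusted p = 0.656).

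Rpl21, another large subunit protein, was the smallest of the 3 rises. Its level was 665, 679 and 665 TPM with the empty vector and 825, 878 and 761 TPM with the fusion, without overlap. It rose by 0.29 (SE 0.0823, limma adjusted p = 0.0481).

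Rpl13a, a large subunit protein that in human myeloid cells can leave the ribosome to silence inflammatory messenger RNAs, stood at 3915, 4166 and 3723 TPM with the empty vector and at 2484, 1993 and 3064 TPM with the fusion. Every fusion library lay below every control. It fell by 0.67 (SE 0.162, limma adjusted p = 0.0331).

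Rpl12, a protein at the base of the stalk, was one of the least abundant members, with 149, 105 and 101 TPM in the controls and 70.2, 62.1 and 86.1 TPM in the fusion libraries. The groups did not overlap, and empty vector replicate 1 was well above the other 2 controls. It fell by 0.68 (SE 0.180, limma adjusted p = 0.0402). Without empty vector replicate 1 its log2 fold change was −0.51 and it was not called.

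Rps2, a small subunit protein near the messenger RNA entry site, had the lowest level of all tested members, at 35.5, 37.7 and 36.9 TPM with the empty vector and 25.4, 26.6 and 31.5 TPM with the fusion. The groups did not overlap, and it fell by 0.39 (SE 0.0973, limma adjusted p = 0.0352). This gene has near-identical processed pseudogenes, and those named after it held 97.9% of the joint level, so its value is uncertain. With their TPM added the log2 fold change was −0.19 and the call was lost (limma adjusted p = 0.416).

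**Figure D2:**
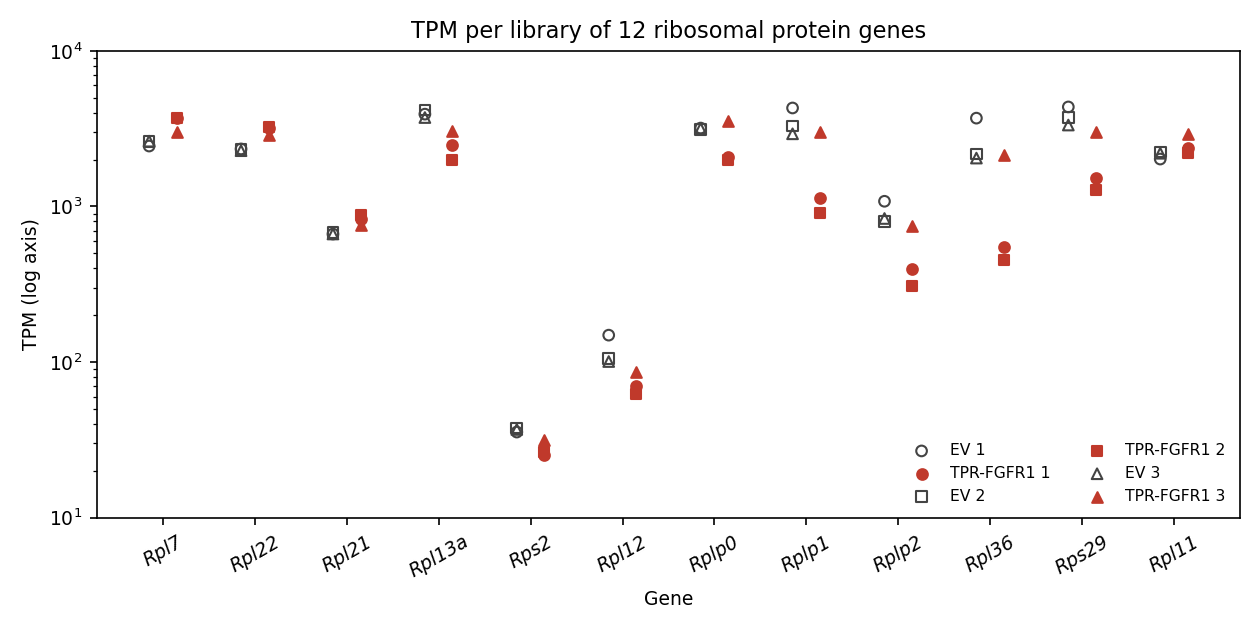
TPM on a log axis of 12 ribosomal protein genes, with 1 point per library, open for empty vector (EV) and filled for TPR-FGFR1. Rpl7, Rpl22 and Rpl21 lie higher and Rpl13a, Rps2 and Rpl12 lower in all 3 fusion libraries, while for Rpl36, Rplp1 and Rplp0 the triangle of TPR-FGFR1 replicate 3 lies within or above the controls.

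The P stalk held 2 of the 4 lowest log2 fold changes among the members. This flexible arm of the large subunit, built from Rplp0 and pairs of Rplp1 and Rplp2, recruits and activates the elongation factors. Rplp0, its anchor, stood at 3186, 3119 and 3165 TPM with the empty vector and at 2079.8, 1976 and 3540.4 TPM with the fusion. Rplp1 stood at 4289, 3278 and 2927 TPM and then at 1136, 908 and 2990.1 TPM. Rplp2 stood at 1079, 797 and 836 TPM and then at 397, 309 and 753 TPM.

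In all 3 stalk genes TPR-FGFR1 replicates 1 and 2 lay below every control. Replicate 3 lay above the controls for Rplp0, within them for Rplp1 and just below them for Rplp2. The log2 fold changes were −0.37 (SE 0.219) for Rplp0, −1.25 (SE 0.426) for Rplp1 and −0.99 (SE 0.314) for Rplp2, with limma adjusted p of 0.247, 0.0791 and 0.0663, and 0 of the 3 were called, although 2 had an unadjusted p under 0.05. The summed stalk share was 0.855%, 0.719% and 0.693% of TPM in the controls and 0.361%, 0.319% and 0.728% in the fusion libraries (two-sided exact permutation p = 0.3). The summed level of Rplp1 and Rplp2 relative to Rplp0 was 1.68, 1.31 and 1.19 in the controls and 0.737, 0.616 and 1.06 in the fusion libraries. This ratio was lower in every fusion library than in any control, but it was not tested. Among all tested genes 20.8% were also lower without overlap. Without TPR-FGFR1 replicate 3 all 3 genes fell, in a fit where 41 of the 78 tested members and 23.5% of all tested genes fell.

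The largest log2 fold change in either direction belonged to Rpl36, a small protein of the large subunit, and it also did not pass the test. Rpl36 stood at 3690.4, 2173 and 2044 TPM with the empty vector and at 548, 450.04 and 2148.5 TPM with the fusion. Replicate 3 lay among the controls and the other 2 fusion libraries were at 0.189 of the control mean (log2 fold change −1.65, SE 0.580, limma adjusted p = 0.0848).

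Rps29, a zinc-binding protein of the small subunit and a Diamond-Blackfan gene, had 4355, 3731 and 3332 TPM with the empty vector and 1512, 1275 and 3029 TPM with the fusion. All fusion libraries were below all controls, replicate 3 by little, and the adjusted p lay just over the threshold (log2 fold change −1.07, SE 0.312, limma adjusted p = 0.0524). Among the higher members that were not called, Rpl9 showed the largest log2 fold change. Rpl9 stood at 3693, 3918 and 3969 TPM and then at 5141, 4849.9 and 4425 TPM, without overlap between groups (0.31, SE 0.101, limma adjusted p = 0.0675).

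The 4 most abundant members divided evenly in direction. Rps24, a small subunit protein and Diamond-Blackfan gene, stood at 10213, 9854.5 and 10062 TPM with the empty vector and at 12594, 13746 and 10968 TPM with the fusion (log2 fold change 0.30, SE 0.124, limma adjusted p = 0.119). Rps27, a zinc-finger protein of the small subunit, stood at 9547, 8826 and 8937 TPM and then at 10918, 11757 and 10713 TPM (0.29, SE 0.106, limma adjusted p = 0.0934). For both, every fusion library was above every control.

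Rpl23a, which lines the mouth of the peptide exit tunnel, stood at 11925, 12038 and 11777 TPM with the empty vector and at 7161, 7210.3 and 11708 TPM with the fusion (log2 fold change −0.49, SE 0.203, limma adjusted p = 0.120). Rps15, a small subunit protein, stood at 8709.9, 8025 and 7679 TPM and then at 4105, 3956 and 8699 TPM (−0.64, SE 0.298, limma adjusted p = 0.155). In both genes replicate 3 was close to the controls and replicates 1 and 2 were at 0.603 and 0.495 of the control mean. Rps18, a small subunit protein and the last of the 4 least abundant tested members with Rps2, Rpl12 and Rpl5, was at 289, 268 and 328 TPM and then at 212, 182 and 403 TPM, so that replicate 3 lay above and the others below every control (−0.24, SE 0.280, limma adjusted p = 0.559).

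Rpl5 and Rpl11 bind the 5S ribosomal RNA and, when free of the ribosome, can hold back Mdm2, the ubiquitin ligase of p53. Rpl5 was one of the least abundant members, at 149.07, 149.19 and 157 TPM with the empty vector and 177, 174 and 133 TPM with the fusion. Rpl11 was far more abundant, at 2015, 2235 and 2195 TPM and then at 2375, 2208 and 2902 TPM. Replicate 3 was the lowest of all 6 libraries for Rpl5 and the highest for Rpl11, and neither gene was called. The log2 fold changes were 0.08 (SE 0.120, limma adjusted p = 0.667) and 0.21 (SE 0.124, limma adjusted p = 0.250).

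Rps6, the substrate of the ribosomal S6 kinases downstream of mTOR, stood at 5322, 5758 and 5796 TPM with the empty vector and at 4963, 5041 and 5774 TPM with the fusion, with overlap (log2 fold change −0.10, SE 0.107, limma adjusted p = 0.518). Rps14, the gene tied to anaemia of the 5q deletion syndrome in humans, stood at 5772, 5430.5 and 5497 TPM and then at 4166, 3966 and 6074 TPM (−0.26, SE 0.173, limma adjusted p = 0.299). Rps19, the gene most often mutated in Diamond-Blackfan anaemia, stood at 1907, 1874 and 1931 TPM and then at 1494, 1357 and 2001 TPM (−0.26, SE 0.148, limma adjusted p = 0.240). For Rps14 and Rps19 replicate 3 lay above and the other 2 fusion libraries below all controls.

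The 19 genes of the Diamond-Blackfan list, all of them members and all tested, had 0 rises and 0 falls in limma, against 10.2% and 10.0% of all tested genes. At an unadjusted p under 0.05 in limma, 2 were higher and 6 lower, against 19.9% and 19.3% of all tested genes. The median log2 fold change of the 19 genes was −0.26. Without TPR-FGFR1 replicate 3, 4 of them rose and 11 fell, against 26.4% and 23.5% of all tested genes.

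Paralogs with a symbol ending in l were compared with their parent genes. Rps27l, an intact small subunit paralog induced by p53, was at 573, 544 and 537 TPM with the empty vector and 596, 612 and 566 TPM with the fusion, so the groups overlapped and replicate 3 was the only fusion library within the control range (log2 fold change 0.10, SE 0.0746, limma adjusted p = 0.354). Rpl36al, a retrocopy that still codes for protein, was at 1113.4, 1131 and 1113.1 TPM and then at 1159, 1178 and 1136 TPM. The groups did not overlap, but the difference was small and was not called (0.05, SE 0.0727, limma adjusted p = 0.645). Its parent Rpl36a was at 2562, 2704.5 and 2841 TPM and then at 3485, 3466 and 2893 TPM (0.28, SE 0.110, limma adjusted p = 0.112), again without overlap, although pseudogenes named after it held 75.2% of the joint level.

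The other 3 paralogs are known mainly from muscle or male germ cells and were at or near 0. Rpl3l was at 0.08, 0.12 and 0.20 TPM with the empty vector and 0.14, 0.21 and 0.21 TPM with the fusion, whereas its parent Rpl3 was at 804, 895 and 871 TPM and then at 760, 732 and 826 TPM. Rpl10, the parent of Rpl10l, was at 2991, 2941 and 3249 TPM and then at 2795, 3051 and 3272 TPM. Rpl39, the parent of Rpl39l, was at 1667, 1775 and 1658 TPM and then at 2121, 2049.9 and 1614 TPM.

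The groups overlapped for all 3 parents. Their log2 fold changes were −0.15 (SE 0.0867) for Rpl3, −0.01 (SE 0.101) for Rpl10 and 0.17 (SE 0.123) for Rpl39, with limma adjusted p from 0.241 to 0.945.

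Among small subunit genes 0 of 31 rose and 1 fell, with a median log2 fold change of −0.23, and at an unadjusted p under 0.05 in limma 3 were higher and 8 lower. Among large subunit genes outside the stalk 3 of 44 rose and 2 fell, with a median of −0.10. At an unadjusted p under 0.05 in limma 5 of them were higher and 13 lower. Over all tested genes 10.2% rose and 10.0% fell, and at an unadjusted p under 0.05 in limma 19.9% were higher and 19.3% lower. The members' log2 fold changes ran from −1.65 for Rpl36 to 0.44 for Rpl7, and 11 were more than 1.5-fold lower and 0 more than 1.5-fold higher, against 8.8% and 4.96% of all tested genes. The groups did not overlap for 11 members that were higher (22.6% of all tested genes) and 17 that were lower (20.8% of all tested genes).

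**Figure D3:**
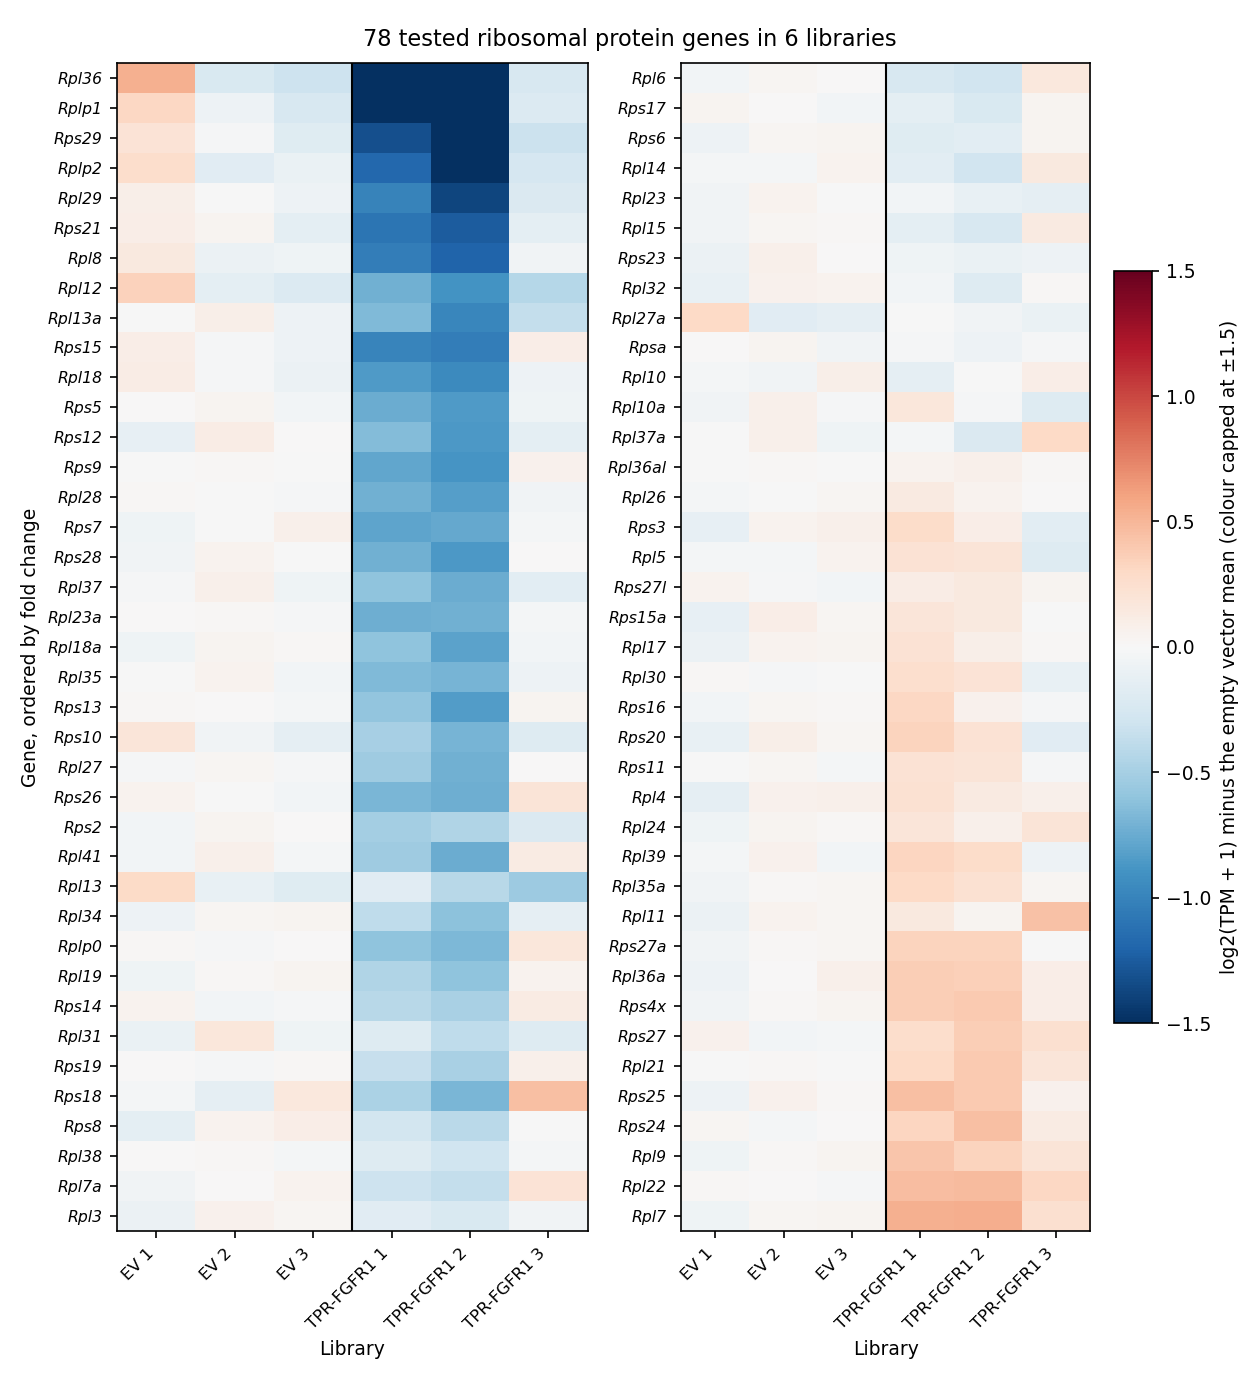
Each row is 1 of the 78 tested members and each column 1 library, and colour gives log2(TPM + 1) minus the mean of the 3 empty vector (EV) libraries, blue for lower and red for higher. TPR-FGFR1 replicates 1 and 2 share a graded pattern from Rpl36 to Rpl7, and replicate 3 is paler, with 0 members more than 1.5-fold below the control mean against 24 and 30 in the other 2.

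The heat map of members by library showed which libraries carried this spread. TPR-FGFR1 replicates 1 and 2 were both below all controls for 43 of the 78 members, against 31.8% of all tested genes, and both above all controls for 25, against 38.9%. Of the 43, 26 had replicate 3 within or above the control range, and of the 25, 14 had it within or below that range. The matching shares over all tested genes were not counted, so these counts are not particular to the members. The median member deviated from the control mean by −0.18, −0.29 and −0.01 in replicates 1, 2 and 3 on the log2 scale, where the median of all tested genes deviated by 0.07, 0.03 and −0.02. The interquartile range over members was 0.845 and 0.844 in replicates 1 and 2 and 0.224 in replicate 3. More than 1.5-fold below the control mean were 24 members in replicate 1, 30 in replicate 2 and 0 in replicate 3, against 11.7%, 15.2% and 5.4% of all tested genes. In each fusion library 0 members were that far above it, against 8.15%, 7.62% and 4.04%.

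The number of calls turned on single libraries. Without TPR-FGFR1 replicate 3, 16 members rose and 41 fell, against 26.4% and 23.5% of all tested genes, and the 6 members called with all libraries were among them. Without any 1 of the other 5 libraries, that is empty vector replicates 1, 2 or 3 or TPR-FGFR1 replicates 1 or 2, limma called 0 members, while 220 to 867 genes of the whole table were called. In these 5 fits 3 or 4 members were higher and 6 to 13 lower at an unadjusted p under 0.05. The share of all tested genes at that threshold was not counted in these fits, so the 2 directions cannot be weighed. Among the 16 rises without replicate 3 were Rpl5, Rpl9, Rps24 and Rps27, and among the 41 falls were the 3 stalk genes, Rpl36, Rps29, Rps14, Rps15, Rps18, Rps19 and Rpl23a. Small subunit genes accounted for 7 of those rises and 17 of the falls, large subunit genes outside the stalk for 9 and 21.

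The 43 members below all controls in TPR-FGFR1 replicates 1 and 2 had a median transcript GC content of 54.0%, although 10 of them lay under the median of all tested members, and the 25 members above all controls had a median of 48.7%, with 22 of them under it. Over the 78 members, Spearman's rho between the GC content of the principal transcript and the deviation from the control mean was −0.61, −0.63 and −0.25 in replicates 1, 2 and 3. It was 0.40, −0.27 and −0.35 in the 3 empty vector libraries, so single controls also differed along GC content. Over 12541 tested genes with a GC value, rho was −0.54, −0.61 and −0.07 in the fusion libraries. These are descriptions across genes that share libraries and overlap in base composition and length. Members had a median GC content of 51.7% and a median length of 882 bases, against 49.3% and 2640 bases over all tested genes.

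**Figure D4:**
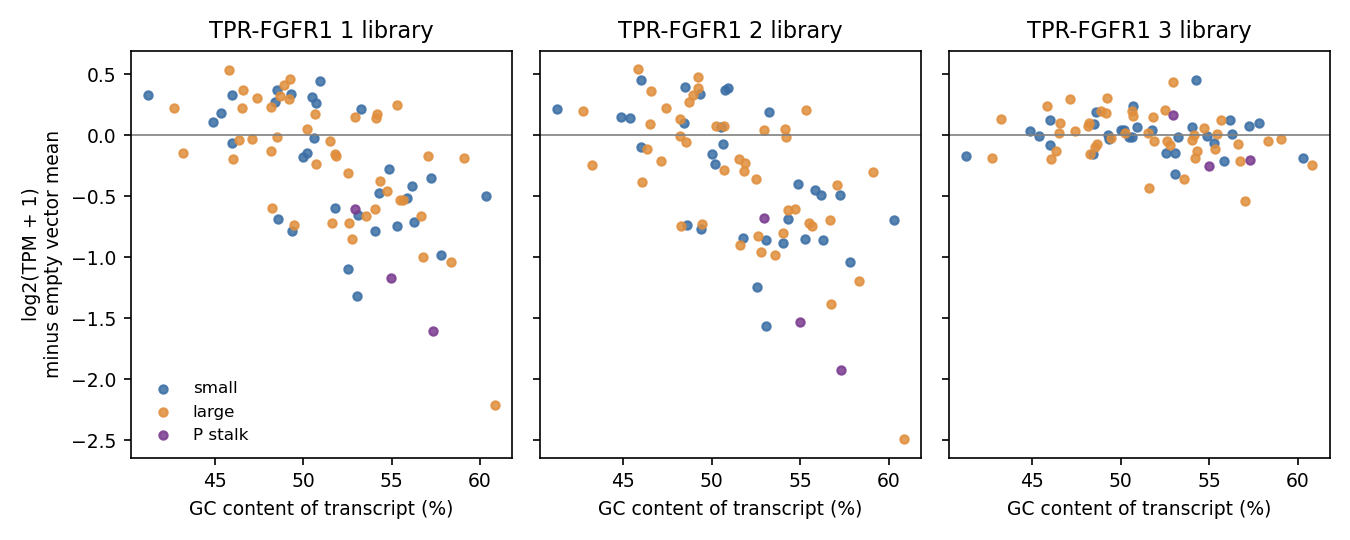
Each point is a tested member, placed by GC content of its transcript in percent and by log2(TPM + 1) in the named library minus the empty vector mean, with colour for the subunit. Points slope downward in TPR-FGFR1 replicates 1 and 2 (rho −0.61 and −0.63, n = 78) and far less in replicate 3 (rho −0.25).

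The members were ordered by GC content and divided into 3 classes of 26. The class from 41.3% to 49.3% had median deviations of 0.23, 0.15 and 0.03 in replicates 1, 2 and 3. The middle class had −0.21, −0.29 and 0.0030, and the class from 54.0% to 60.8% had −0.52, −0.70 and −0.05. Replicates 1 and 2 were both below all controls for 4, 17 and 22 members of the low, middle and high class, and both above for 17, 6 and 2. A correction of each library for GC content and length, chosen with earlier results known, gave 5 members that rose (Rpl7, Rpl9, Rpl11, Rpl21 and Rpl22), against 16.6% of all genes tested in it, and 7 that fell (Rpl12, Rpl13a, Rpl23, Rpl29, Rpl31, Rpl37 and Rps12), against 15.9%. Rps2 lost its call, and Rpl9, Rpl11, Rpl23, Rpl29, Rpl31, Rpl37 and Rps12 were called with the correction but not without it. Rpl36 then had a log2 fold change of −1.12, Rplp1 of −0.89 and Rplp2 of −0.77, and the median over members was −0.09. What lies behind the relation to GC content was not tested.

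Pseudogenes are another limit of these values, since the family has many processed copies among which reads can be divided. The 300 entries with an Rps or Rpl symbol and the suffix ps, nearly all named after a member, are taken here as the named pseudogenes. Copies under other names are not among them. They summed to 4.76%, 4.52% and 4.73% of TPM with the empty vector and 4.12%, 4.28% and 5.11% with the fusion. The groups overlapped, replicate 3 being the highest of the 6 libraries (two-sided exact permutation p = 0.6). Of the members, 59 had at least 1 such pseudogene, and for 16 the pseudogenes held over 10% of the joint level. They held over 50% for Rps2, Rps16, Rps23, Rps26, Rpl3, Rpl10a, Rpl27, Rpl31 and Rpl36a. With pseudogene TPM added to each parent, 2 members rose, Rpl7 and Rpl22, and 2 fell, Rpl12 and Rpl13a.

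Of the 13 tested members with a C and 4 pyrimidines at the annotated start, among them Rplp2, Rps27, Rps6, Rpl35 and Rpl28 printed above, limma called 0 in either direction, with 1 higher and 5 lower at an unadjusted p under 0.05. Their median log2 fold change was −0.17 against −0.09 for the 45 other tested members with a promoter entry. Rps27 and Rplp2, which both have the tract, were among the higher and the lower members respectively. With the C allowed up to 5 bases to either side, 0 of 28 members rose and 3 fell (Rpl12, Rpl13a and Rps2). At an unadjusted p under 0.05 in limma 2 of the 28 were higher and 10 lower, and their median log2 fold change was −0.25. The counts of each class stand beside 10.2% of all tested genes that rose and 10.0% that fell. For the unadjusted p these shares were 19.9% higher and 19.3% lower. Of the 30 members without such a tract 1 rose and 0 fell, with 4 higher and 5 lower at an unadjusted p under 0.05 and a median of −0.01. Their median GC content was 52.2% with and 50.6% without the tract, and the difference between these classes was not tested. For CGGAAG the medians were −0.12 in 41 members with and −0.10 in 17 without it.

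The 6 genes of the ribosome that the symbol rule leaves out gave 0 calls, where 10.2% of all tested genes rose and 10.0% fell. The 6 had a median log2 fold change of −0.13. At an unadjusted p under 0.05 in limma 2 were lower, against 19.3% of all tested genes. Leaving out TPR-FGFR1 replicate 3 gave 1 that rose and 3 that fell, against 26.4% and 23.5% of all tested genes. Fau, which encodes a fusion of a ubiquitin-like protein with a small subunit protein, was at 1837, 1756 and 1718 TPM with the empty vector and at 1071, 861 and 1772 TPM with the fusion. Replicates 1 and 2 were below all controls and replicate 3 lay within them (log2 fold change −0.59, SE 0.246, limma adjusted p = 0.126).

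Rack1, a scaffold protein on the small subunit, stood at 2329, 2599 and 2539 TPM and then at 1992, 1783 and 2298 TPM, below every control (−0.30, SE 0.118, limma adjusted p = 0.105). Rps3a1, a small subunit protein, stood at 1407.5, 1546 and 1542.5 TPM and then at 1751, 1562.5 and 1518 TPM, and Rpl7l1, a paralog of Rpl7, at 131, 139 and 137 TPM and then at 147, 140.27 and 130.18 TPM. The groups overlapped for both (0.10 and 0.04, limma adjusted p = 0.449 and 0.748).

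The other genes around the ribosome gave the counts that follow, each to be read beside the share of all tested genes in the same fit. With all 6 libraries 10.2% of them rose and 10.0% fell, and without TPR-FGFR1 replicate 3 26.4% and 23.5%. After the GC and length correction the shares were 16.6% and 15.9%. At an unadjusted p under 0.05 in limma, 19.9% were higher and 19.3% lower. Of 32 ribosome biogenesis genes, which process ribosomal RNA in the nucleolus, 0 rose and 13 fell, with a median log2 fold change of −0.34. At an unadjusted p under 0.05 in limma, 2 of them were higher and 17 lower. The counts were 4 and 20 without TPR-FGFR1 replicate 3, and after the GC and length correction with all 6 libraries 2 rose and 18 fell. Mybbp1a stood at 93.5, 99.6 and 94.8 TPM with the empty vector and at 49.95, 45.5 and 58.3 TPM with the fusion, and fell by 0.90 (SE 0.102, limma adjusted p = 0.0066). Gar1, a protein of the particles that convert uridine to pseudouridine, fell by 0.63 (SE 0.0739, limma adjusted p = 0.00699), and Bop1, needed for large subunit assembly, fell by 0.89 (SE 0.158, limma adjusted p = 0.0153). The list medians of TPR-FGFR1 replicates 1, 2 and 3 were −0.28, −0.36 and −0.28 from the control mean, and the members' medians were −0.18, −0.29 and −0.01. Single genes of the list differed between the fusion libraries in both directions, which a median does not show. Ncl was lowest in replicate 3 (477, 467 and 356 TPM), and Fbl was highest there (78.9, 73.7 and 108 TPM).

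**Figure D5:**
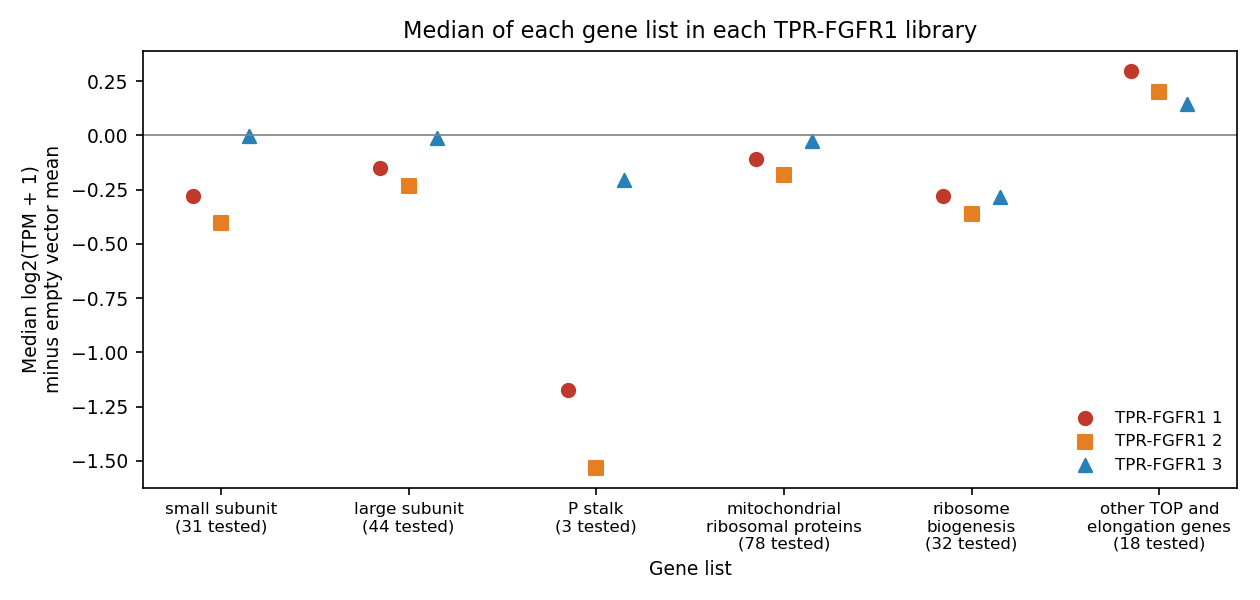
Points give, for each gene list, the median over its tested genes of log2(TPM + 1) minus the empty vector mean in TPR-FGFR1 replicates 1, 2 and 3. Replicate 3 lies near 0 for the small and large ribosomal subunit (−0.01 for the large) and at −0.28 for the 32 ribosome biogenesis genes.

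Of 18 other genes with TOP messenger RNAs or a part in elongation, 2 rose and 0 fell, with a median log2 fold change of 0.22, while 9 were higher and 2 lower at an unadjusted p under 0.05 in limma. With TPR-FGFR1 replicate 3 left out 11 rose and 4 fell, and after the GC and length correction 5 rose and 1 fell. The 2 that rose with all 6 libraries were Nap1l1, a histone chaperone, which rose by 0.52 (SE 0.114, limma adjusted p = 0.0261), and Btf3, a subunit of the nascent polypeptide-associated complex, which rose by 0.39 (SE 0.0932, limma adjusted p = 0.0310). Hnrnpa1, an RNA-binding protein, was next (0.25, SE 0.0796, limma adjusted p = 0.0632). Their fusion libraries had medians of 0.30, 0.20 and 0.14 from the control mean.

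Of 19 genes that control TOP messenger RNAs or the transcription of ribosomal protein genes, 4 rose and 2 fell, with a median of 0.01, and without TPR-FGFR1 replicate 3 the counts were 6 and 4. The zinc-finger factor gene Zfp143 stood at 6.18, 7.53 and 7.25 TPM and then at 19.7, 19.9 and 16.1 TPM, and it rose by 1.29 (SE 0.118, limma adjusted p = 0.00587). Sp1 rose by 0.62 (SE 0.0976, limma adjusted p = 0.0117) and Gabpa by 0.60 (SE 0.107, limma adjusted p = 0.0153). Eif4ebp2 also rose, by 0.24, and Eif4ebp1 and Rptor fell, by 0.95 and 0.57 (limma adjusted p = 0.0471, 0.0183 and 0.0326). These last 3, an inhibitor of cap-dependent translation, its paralog and a subunit of mTOR complex 1, are named because they complete the count, after their values were seen. Larp1 was at 69.9 to 72.9 TPM in the controls and 53.2 to 66.5 TPM in the fusion libraries, and it too is named after its values were seen (−0.26, limma adjusted p = 0.0959).

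Of 10 chaperones and importers of ribosomal proteins, 1 rose and 3 fell, with a median of −0.03, and without TPR-FGFR1 replicate 3 the counts were 3 and 3, and after the GC and length correction 1 and 5. Grwd1, whose yeast counterpart is a chaperone of Rpl3, fell by 0.92 (SE 0.170, limma adjusted p = 0.0167). Aamp, whose yeast counterpart is a chaperone of Rpl10, fell by 0.93 (SE 0.212, limma adjusted p = 0.0280). The rise was that of Nap1l1, and the last fall was that of Bccip, by 0.31 (limma adjusted p = 0.0479), whose yeast counterpart is a chaperone of Rpl23. Of 78 mitochondrial ribosomal protein genes, which are encoded in the nucleus, 8 rose and 13 fell, with a median of −0.10, and without TPR-FGFR1 replicate 3 the counts were 18 and 27. Their summed share was 0.325% to 0.333% of TPM with the empty vector and 0.312% to 0.332% with the fusion (two-sided exact permutation p = 0.6). The smallest adjusted p among them belonged to Mrpl35, which rose by 0.75, and to Mrps28 and Mrps18b, which fell by 0.90 and 0.70 (limma adjusted p = 0.00746, 0.00763 and 0.00854).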

How the data were processed

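Messenger RNA was sequenced as read pairs in 6 libraries, and per the labels' protocols a stranded mRNA kit and 1 µg of total RNA were used for each. The authors deposited TPM values, abundances scaled by transcript length and library total, and each column sums to 1000000 within rounding. The submitters' processing notes name StringTie, HISAT2, fastp and build GRCm39, with versions, annotation and strand setting not given in the sources used here. Columns were matched to samples by name, with 0 columns of other samples.

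Symbols, biotypes, GC content and length came from GENCODE M21 (GRCm38), matched by gene ID (52081 of 57010 IDs had a symbol), and the coordinates of the printed start windows are those of the RefSeq promoter table on GRCm38.p6. GC content and length are those of the principal transcript, or the longest where none is marked. log2(TPM + 1) was compared for 12862 genes, those whose mean reached 1 TPM, with limma 3.58.1 in R 4.3.3 (eBayes with trend, group as the only term), with Benjamini-Hochberg adjustment over all of them and a threshold of 0.05. Shares were compared with two-sided exact permutation tests. The pipeline was tested on simulated data.

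The members, the lists of other genes and the alternatives were chosen with earlier results of these data known. Values in every library are given for called members, the 4 highest, the 4 lowest, the 4 largest changes each way, paralogs with their parents and 6 genes of known roles, and other lists name their 3 smallest adjusted p. The GC and length correction removed from each library a spline trend (4 degrees of freedom). Alternatives were other pseudocounts, filters, scalings, variance settings and library weights, the replicate number as a block, protein-coding genes alone, and each library left out. Added after seeing the data were the correction without TPR-FGFR1 replicate 3, and pseudogene TPM added to parents or to the share. Single values of 2 genes from these lists are not reported here.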

Additional observations from a re-analysis of the deposited data

How the results depend on the processing

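The share of TPM held by the members was lower with the fusion under all 13 alternatives, with differences from −3.02 to −1.12 percentage points. Both extremes came from leaving out 1 fusion library. Every alternative kept TPR-FGFR1 replicate 1 or 2 or both, whose share lay below every control, while that of replicate 3 lay above every control. The replicate block cannot move the difference, which stayed at −1.90. A shared sign is thus no independent support. Counts of called members depended on the processing, against 3 rises and 3 falls of 2600 genes called in all. No filter on low values gave 0 and 0 of 1146 in limma (3 higher and 13 lower at an unadjusted p under 0.05), and the replicate block gave 0 and 0 of 764 (3 higher and 23 lower). For these unadjusted counts the share of all tested genes was not counted. Libraries of the same number did not deviate together (r of −0.19, −0.07 and −0.15 over genes), and no library correlated best with its own number. Scaling to the median ribosomal protein gene gave 1 and 1 of 1472, quantile normalization gave 5 and 5 of 3067, a filter at 5 TPM 3 and 7 of 2567 and protein-coding genes alone 3 and 9 of 2865. Library weights gave 26 and 44 of 9281, in a fit whose weights did not fully converge. The GC and length correction gave 5 and 7 of 4074, and without TPR-FGFR1 replicate 3 it gave 16 and 36 of 4821. Leaving out 1 library gave 0 to 16 rises and 0 to 41 falls of 220 to 6407. Over 22 settings the 6 called members kept their direction and lost the call in 7 (Rpl13a, Rpl22), 8 (Rpl7), 9 (Rpl12) and 11 (Rpl21, Rps2). Over all 78 members the direction turned for 11 under the correction, 10 under it without replicate 3, 12 when scaled to ribosomal proteins, 8 with quantile normalization, 4 with pseudogenes and 0 to 3 elsewhere. Rpl38 was called lower without replicate 3 (−0.24, limma adjusted p = 0.0142) and higher with the correction added (0.38, limma adjusted p = 0.00617). Turned values follow for 21 members that the naming rule takes, the l paralogs and their parents apart. Rpl5 was at −0.0823 and −0.0383 under the correction with all libraries and without replicate 3, and Rps14 at 0.0179 under the correction. Rps19 was at 0.00843 with quantile normalization and at 0.0731 and 0.0597 under both corrections. Rps6 was at 0.0485 when scaled to ribosomal proteins and 0.0814 with pseudogenes. Of the paralogs and parents, Rps27l turned under both corrections, to −0.0154 and −0.0408. Rpl10 turned with quantile normalization, without mitochondrially encoded genes, when scaled to ribosomal proteins, and without empty vector replicate 3 or TPR-FGFR1 replicate 1. The causes were not tested. TPM hides the depth, so the precision of low values such as Rps2 cannot be given.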
